A study of Mus musculus with 30 samples.

Results

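The 36 genes described here encode enzymes that oxidise pyruvate and fatty acids in mitochondria. They comprise the pyruvate dehydrogenase complex, pyruvate carboxylase, 12 enzyme subunits of the tricarboxylic acid (TCA) cycle, the carnitine shuttle, the spiral of beta-oxidation and the electron transfer flavoproteins. They were chosen by name from those pathways, without use of measured values in the rule but with earlier results of these data known. They are 36 of the 23109 genes in the RNA tables. Where a gene had several RefSeq transcript accessions, the accession with the most reads over all libraries stood for it.

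Messenger RNA was sequenced in 8 libraries of mouse brown preadipocytes. The cells derive from newborn C57BL/6J pups, from interscapular brown fat, with loxP-flanked Nr3c1 alleles (GRf/f), Nr3c1 being the gene of the glucocorticoid receptor (GR), and all of them were immortalised with SV40T. Retroviral Cre gave the receptor-deleted cells (Cre), and the retroviral vector (Vec) gave cells that keep the receptor. Cells of both groups were plated 4 days before induction and, once confluent, received, for 4 hours, 2 µg/ml dexamethasone (a receptor ligand), 0.5 mM IBMX (which raises cAMP), 0.125 mM indomethacin, 0.02 µM insulin and 1 nM T3. Each genotype has 1 library at each of 4 times: before induction (D0), at 4 hours (4h), on day 2 (D2) and on day 7 (D7). The labels do not say whether either line is a pool or a clone, nor which media followed the first 4 hours. The design asks how differentiation of these cells proceeds with and without the receptor.

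Levels are RPKM, reads divided by transcript length and by library depth, which are scaled by length and so allow genes to be set against each other. Depth, worked out from the deposited read counts and RPKM, ran from 7706699 reads (Cre 4h) to 28864140 (Vec D2). The targeted gene, Nr3c1, had 4.81, 4.04, 8.07 and 6.67 RPKM in Cre cells at D0, 4h, D2 and D7, against 24.3, 12.9, 21.3 and 32.1 RPKM in Vec cells. All 4 Cre libraries lay below all 4 Vec libraries for Nr3c1. Summed RPKM of 8 adipocyte markers was 53.6 in Cre and 52.2 in Vec at D0, 2122.0 in Cre and 2368.8 in Vec at D2, and 2679.1 in Cre and 6820.5 in Vec at D7. Among 8 markers of brown adipocytes, Ucp1 did not exceed 0.882 RPKM in any library. Of the 6 tested, however, 4 rose at D7 against D0, where 5.68% of all genes rose. Among them was Cox8b, with 41.2 RPKM in Cre and 49.7 in Vec at D7. Summed markers of macrophages reached at most 1.56 RPKM and those of endothelium 3.2 RPKM, with Adgre1 at 0 reads in every library except Vec D7, where 1 read was counted.

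Pyruvate enters the mitochondrion and is either decarboxylated to acetyl-CoA by pyruvate dehydrogenase or carboxylated to oxaloacetate by pyruvate carboxylase, and both products meet in citrate. Fatty acids enter as carnitine esters and are shortened by repeated dehydrogenation, hydration, a further dehydrogenation and thiolysis, each round giving acetyl-CoA and passing electrons to the respiratory chain. Brown fat burns fatty acids for heat and is rich in these enzymes, whereas adipocytes in general also export citrate from the cycle as the carbon for new fatty acids.

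RefSeq promoter windows (GRCm38.p6, 250 bases before to 50 after a start site) were at hand for 31 of the 36 genes, 37 windows in all. They are shown for 4 genes that the results turn on or that share sequence. Pcx had the largest change over time, Cpt1a was the gene higher in Cre cells at both D2 and D7, Mdh2 was the member with the most RPKM in 7 of the 8 libraries, and Hadha and Hadhb lie head to head. In Pcx and Cpt1a, capitals mark CCAAT, in Mdh2 the cAMP response element TGACGTCA, and in Hadha the 228 bases that, read on the other strand, also begin the Hadhb window.
Pcx, chr19:4510222-4510521, plus strand: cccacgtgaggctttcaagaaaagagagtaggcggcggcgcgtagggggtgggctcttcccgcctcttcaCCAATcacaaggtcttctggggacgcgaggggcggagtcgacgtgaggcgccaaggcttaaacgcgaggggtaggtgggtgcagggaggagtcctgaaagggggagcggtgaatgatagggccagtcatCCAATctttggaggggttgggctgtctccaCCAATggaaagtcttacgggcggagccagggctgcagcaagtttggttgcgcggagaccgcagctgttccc
Cpt1a, chr19:3323051-3323350, plus strand: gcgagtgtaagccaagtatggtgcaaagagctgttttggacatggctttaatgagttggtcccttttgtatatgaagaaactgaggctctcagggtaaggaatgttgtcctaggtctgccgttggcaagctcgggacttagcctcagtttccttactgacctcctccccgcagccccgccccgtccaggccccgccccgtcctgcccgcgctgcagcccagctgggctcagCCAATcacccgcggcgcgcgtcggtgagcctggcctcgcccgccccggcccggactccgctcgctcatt
Mdh2, chr5:135778399-135778698, plus strand: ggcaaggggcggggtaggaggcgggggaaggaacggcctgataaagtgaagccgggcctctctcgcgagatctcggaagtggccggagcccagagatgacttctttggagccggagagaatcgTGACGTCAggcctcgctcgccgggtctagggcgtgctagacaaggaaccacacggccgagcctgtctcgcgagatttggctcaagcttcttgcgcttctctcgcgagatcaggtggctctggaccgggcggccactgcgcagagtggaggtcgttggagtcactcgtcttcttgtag
Hadha, chr5:30154931-30155230, minus strand: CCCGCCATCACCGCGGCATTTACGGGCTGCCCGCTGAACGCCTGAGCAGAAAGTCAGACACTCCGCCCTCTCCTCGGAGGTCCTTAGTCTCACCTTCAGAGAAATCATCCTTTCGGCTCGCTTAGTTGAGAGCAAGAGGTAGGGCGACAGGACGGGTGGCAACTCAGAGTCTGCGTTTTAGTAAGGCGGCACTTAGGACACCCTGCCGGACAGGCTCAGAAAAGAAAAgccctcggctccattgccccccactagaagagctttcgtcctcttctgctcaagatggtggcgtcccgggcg
The start sites of Hadha and Hadhb are 273 bases apart on opposite strands. Of 7 motifs searched on both strands, CCAAT was in 21 of the 37 windows (56.8%), against 37.4% of all 32851 windows. Those 21 windows belong to 15 of the 31 genes, since Ogdh and Pcx count with several windows each and some Ogdh windows hold the same sites. The cAMP response element was in 4 windows (10.8%, against 1.79% of all windows), of which 3 are overlapping Ogdh windows that hold 1 and the same site and the other is the Mdh2 window. The ETS motif CCGGAAGT was in the Cpt2 and Dlst windows (5.41%, against 3.89%) and the palindromic NRF1 motif in that of Etfdh (2.7%, against 0.971%). No member window held the estrogen-related receptor motif TCAAGGTCA (0.423% of all windows), the PPAR direct repeat (0.0396%) or the glucocorticoid response element (0.0396%). Motifs this rare would seldom fall in any 37 windows, so their absence says little about the members. No motif match overlapped another within a window. These are matches of letters and say nothing of binding.

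Over the course of differentiation the genes of pyruvate and fatty acid oxidation stood near their starting level at 4h, and 33 of 36 were higher at D2 in both genotypes. At D7 most members were above their D2 level in Vec cells and below it in Cre cells. Cpt1a, which commits long-chain fatty acids to the mitochondrion, was higher in Cre cells at D2 and D7, by 1.50 and 1.30 in log2(RPKM + 1). Acads and Cpt1b were higher in Cre at D2 by 0.22 and 0.28 but not at D7, and Acads was already higher in Cre at D0 and 4h. Together the 36 genes made up 0.404, 0.356, 0.824 and 0.577% of the summed RPKM of all genes in Cre cells over D0, 4h, D2 and D7, and 0.397, 0.349, 1.01 and 1.11% in Vec cells. Their median level was 22.2, 19.5, 39.2 and 31.6 RPKM in Cre cells and 22.2, 19.1, 49.9 and 67.2 RPKM in Vec cells at those times. The panels of RPKM by time show each gene.

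**Figure D1:**
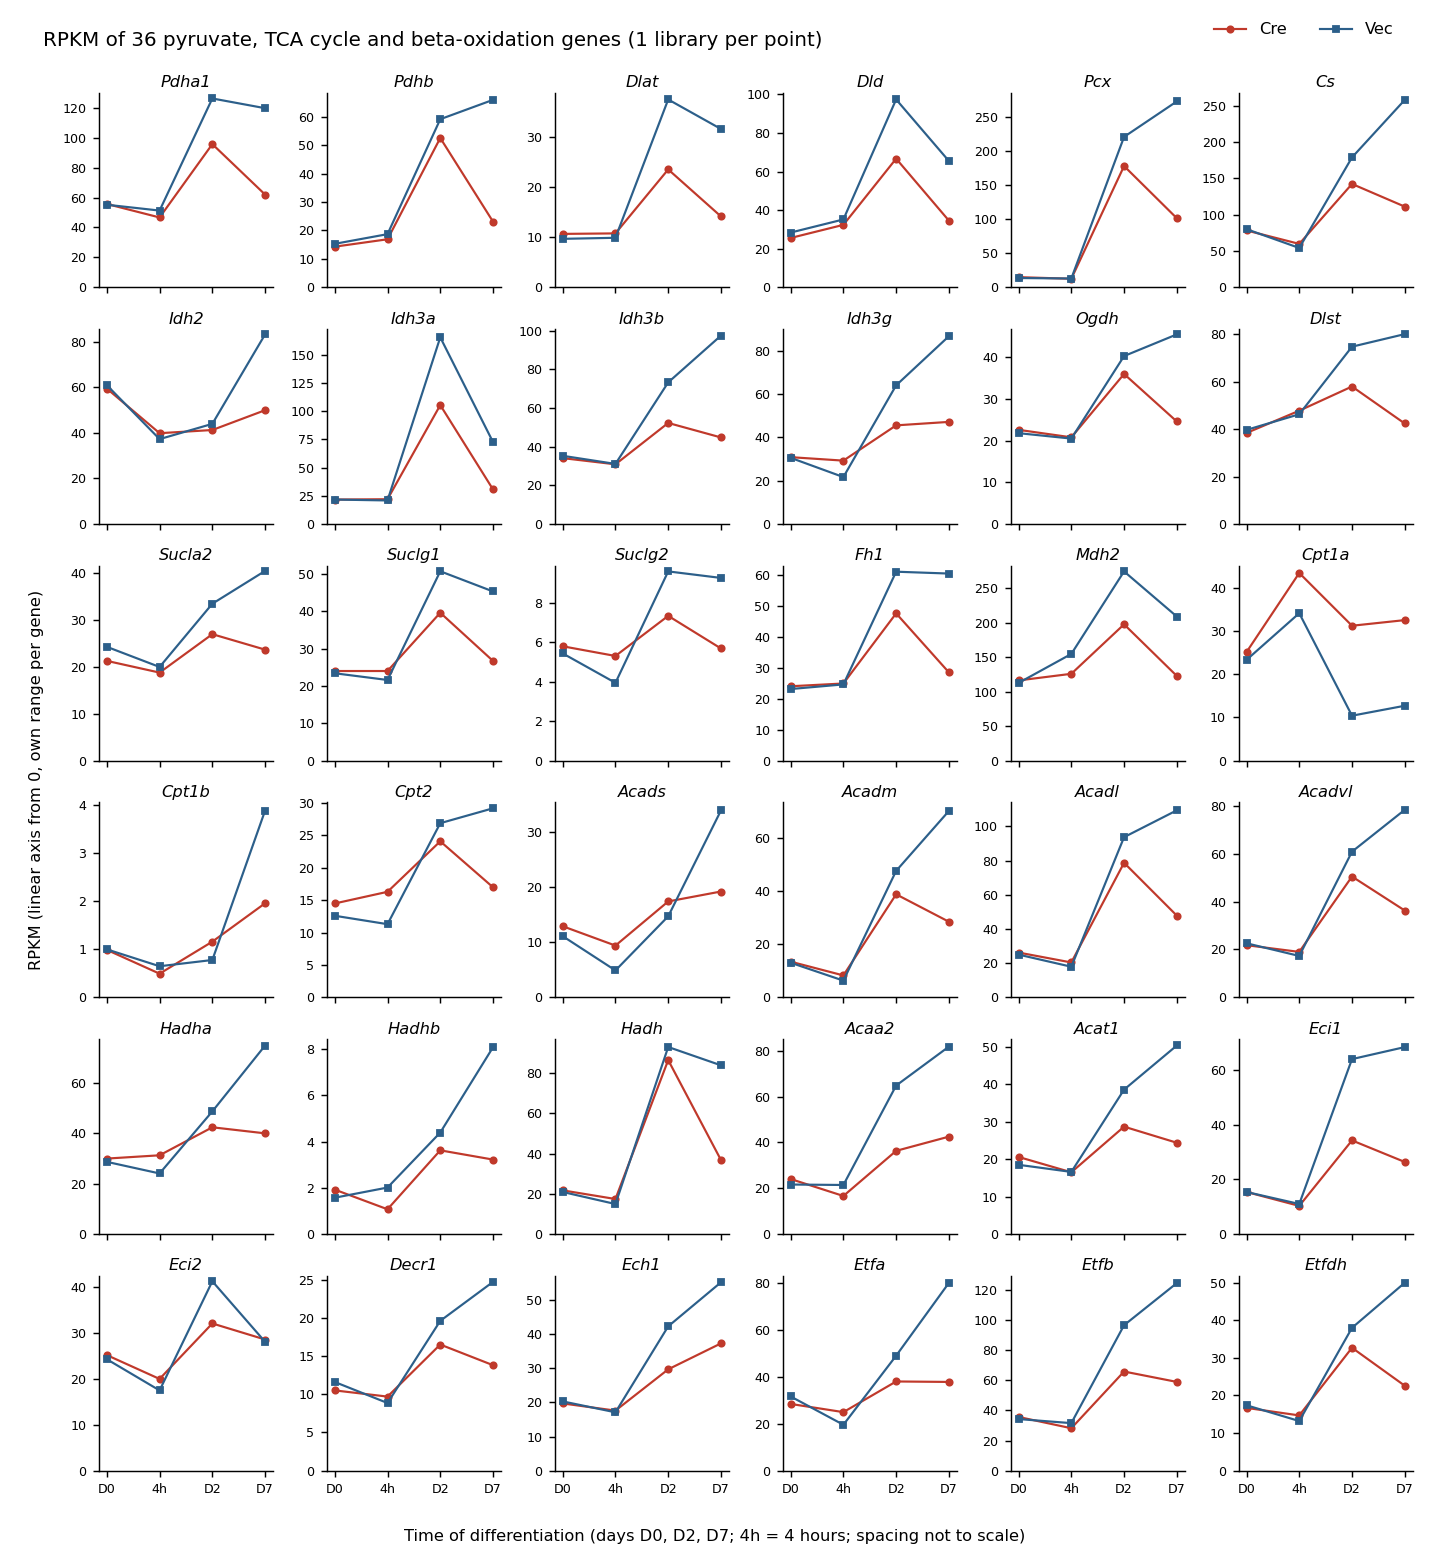
RPKM (vertical axis, linear from 0, own range per gene) of the 36 genes at D0, 4h, D2 and D7 (horizontal axis, spacing not to scale) in Cre cells (red circles) and Vec cells (blue squares), 1 library per point and no error bars. The 2 lines lie together at D0 and part by D7, where the Vec point is above the Cre point in every panel but Cpt1a and Eci2.

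Time was tested over both genotypes with edgeR's quasi-likelihood test on read counts, in a model with a term for time and a term for genotype, with Benjamini-Hochberg adjustment over the 12581 genes tested, all 36 members among them. Each time has 2 libraries, and the error of this model is the departure of the genotypes from parallel courses, so a gene whose course differs between genotypes has a larger error. Nothing in the labels makes the libraries separate cultures, so the p-values measure the spread over these libraries alone.

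At D2 against D0, 19 of the 36 members rose and 0 fell (adjusted p under 0.05), against 17.7% of all genes that rose and 21% that fell. The median fitted log2 change was 0.92 over the members and 0.02 over all genes. In 33 of 36 members both D2 libraries lay above both D0 libraries, against 41.6% of all genes. The count rested on single libraries: it was 2 without Vec D0, 8 without Cre D2, 5 without Vec D2, and 31 (30 rose, and Idh2 fell) without either Cre D7 or Vec D7. Pcx and Idh3a passed at D2 whichever 1 of the 8 libraries was left out.

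At D7 against D0, 7 members rose and 0 fell: Pcx, Acadm, Acadl, Acadvl, Acaa2, Ech1 and Etfb. Among all genes 5.68% rose and 2.42% fell. The median fitted log2 change was 1.10 over the members and 0.01 over all genes. The members' median was 0.55 without Vec D7, under the 0.93 of D2 in that fit, and 1.50 without Cre D7. In 32 members both D7 libraries lay above both D0 libraries, against 26.7% of all genes. This count moved with every library: it was 31 without Cre D7, 1 without Vec D7, 2 without any of Cre 4h, Vec 4h, Cre D2 or Vec D2, and 0 without either D0 library. DESeq2 called 26 members on the same libraries. Between D7 and D2, Cpt1b rose and Idh3a fell, against 15.4% of all genes that rose and 8.93% that fell, and each of those calls was lost in some of the fits with 1 library left out. The members' median between D7 and D2 was 0.12, with 20 of 36 above 0. It was -0.46 without Vec D7, 0.52 without Cre D7 and -0.06 in limma on log2(RPKM + 1), so these libraries give it no settled sign.

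At 4h against D0, 0 members passed in edgeR's quasi-likelihood test, in DESeq2 or in limma, where 12.2% of all genes rose and 13.1% fell in the first of these. Of the members 1 had an unadjusted p under 0.05, against 41.6% of all genes. Both 4h libraries lay below both D0 libraries in 24 members, against 43.2% of all genes, and above them in 6, against 30.7%. Without Cre D7, however, Idh2, Acads and Acadm fell at 4h, and without Vec D7 Idh2 and Acadm did. The Vec 4h library needs a shift of 0.12 (log2) by median-of-ratios scaling before its typical gene matches the other libraries.

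**Figure D2:**
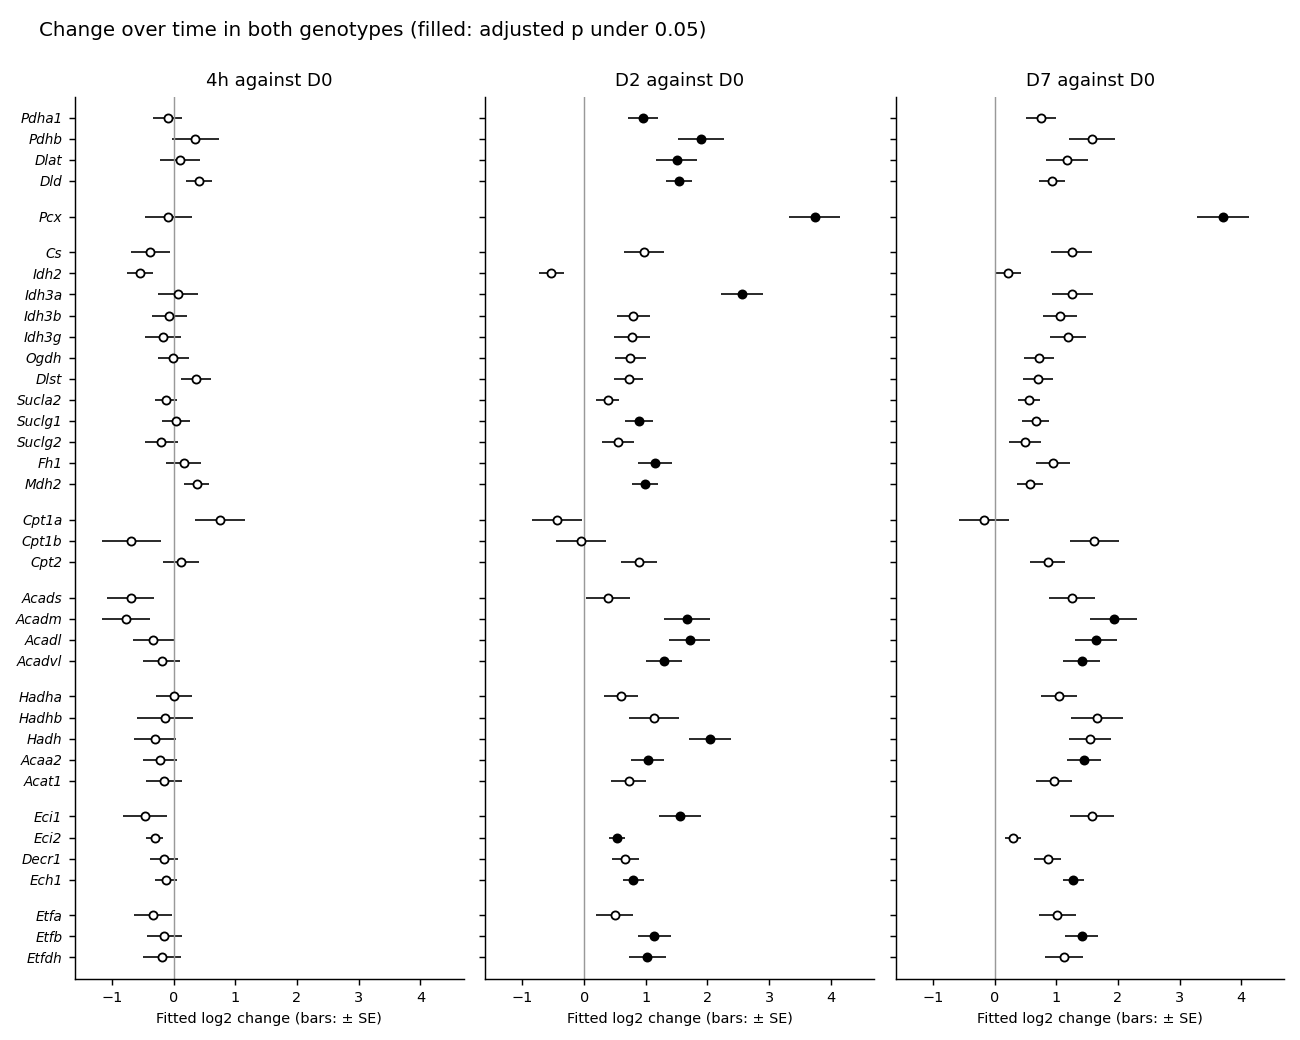
Fitted log2 change (horizontal axis) of each member at 4h, D2 and D7 against D0, from the edgeR model over both genotypes (2 libraries per time), with bars of 1 SE. Filled points passed an adjusted p of 0.05: 0 members at 4h, 19 at D2 and 7 at D7, all of them to the right of 0, with Pcx farthest.

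The pyruvate dehydrogenase complex has 3 catalytic components, and the genes of all of them rose at D2. Pdhb, the beta subunit of the pyruvate-decarboxylating component, had 14.3, 16.9, 52.5 and 23.1 RPKM in Cre cells at D0, 4h, D2 and D7, against 15.3, 18.7, 59.1 and 65.9 RPKM in Vec cells. Both D2 libraries were above every earlier library, and at D7 Vec stayed high while Cre lay closer to D0. Its fitted change at D2 was 1.89 ± 0.37 (SE), and the Cre to Vec ratio at D7 was 0.35 (95% interval 0.321 to 0.381), the lowest of all 36 members. Pdha1, its X-linked alpha partner, had 55.7, 46.7, 95.7 and 62 RPKM in Cre cells, against 55.2, 51.3, 126.2 and 119.7 RPKM in Vec cells. It was the more abundant of the pair in every library, and rose at D2 by 0.95 ± 0.24. Dlat, the acetyltransferase core, had 10.7, 10.8, 23.6 and 14.2 RPKM in Cre cells, against 9.71, 9.92, 37.6 and 31.7 RPKM in Vec cells. Among the 4 members of the complex it was the least abundant at D7 in both genotypes. Dld, the dihydrolipoamide dehydrogenase that oxoglutarate dehydrogenase also uses, had 25.6, 32.4, 66.7 and 34.6 RPKM in Cre cells, against 28.4, 35.2, 97.4 and 65.5 RPKM in Vec cells. Fitted changes at D2 were 1.50 ± 0.33 for Dlat and 1.54 ± 0.21 for Dld. Adjusted p at D2 by edgeR's quasi-likelihood test lay between 0.00526 (Dld) and 0.0275 (Pdha1) in these 4 genes, and none of them passed at D7 against D0.

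Pcx, pyruvate carboxylase, refills the cycle with oxaloacetate and in adipocytes serves the export of citrate. It had 15, 12.6, 178.1 and 101.5 RPKM in Cre cells at D0, 4h, D2 and D7, against 13.7, 13, 220.9 and 273.0 RPKM in Vec cells. The D0 and 4h libraries of both genotypes lay between 12.6 and 15 RPKM, all later libraries at 101.5 RPKM or more, and Vec D7 was the highest of the 8. Its fitted change was 3.74 ± 0.41 at D2 and 3.70 ± 0.42 at D7 (SE; edgeR quasi-likelihood, adjusted p = 0.00347 and 0.0114), the largest of all members at both times. Left-out libraries moved the D2 change between 3.38 and 4.16 and the D7 change between 2.95 and 4.32. The D7 call was lost without either D0 library.

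Among the TCA cycle genes, Idh3a, Suclg1, Fh1 and Mdh2 rose at D2 and the other 8 of 12 did not pass. Cs, citrate synthase, joins acetyl-CoA to oxaloacetate and had 78.3, 59.8, 142.3 and 111.1 RPKM in Cre cells at D0, 4h, D2 and D7, against 80.1, 54.2, 178.8 and 257.9 RPKM in Vec cells. Vec was highest at D7, while Cre D7 lay between Cre D0 and Cre D2. The fitted change at D2 was 0.97 ± 0.32 (edgeR quasi-likelihood, adjusted p = 0.0574). Isocitrate is oxidised by an NAD-dependent enzyme with 3 kinds of subunit, Idh3a, Idh3b and Idh3g, and by Idh2, which uses NADP. Idh3a, the catalytic subunit, had 21.7, 22, 105.5 and 30.7 RPKM in Cre cells, against 21.7, 20.9, 165.6 and 72.7 RPKM in Vec cells. Both D2 libraries stood above all 6 others, and both genotypes came down between D2 and D7. Its fitted change was 2.56 ± 0.34 at D2 against D0 and -1.30 ± 0.32 at D7 against D2 (SE; edgeR quasi-likelihood, adjusted p = 0.00474 and 0.036).

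The partner subunits did not share a pulse of this size. Idh3b had 34.1, 30.9, 52.3 and 44.8 RPKM in Cre cells at D0, 4h, D2 and D7, against 35.3, 31.1, 73.3 and 97.5 RPKM in Vec cells, and Idh3g had 30.9, 29.3, 45.6 and 47.2 RPKM in Cre cells, against 30.6, 21.7, 64.1 and 86.8 RPKM in Vec cells. In Vec cells both were highest at D7, not D2, and in Cre cells Idh3b was highest at D2 and Idh3g at D7. The RPKM ratio of Idh3a to Idh3b was accordingly 0.637 in Cre and 0.614 in Vec at D0, 2.02 in Cre and 2.26 in Vec at D2, and 0.686 in Cre and 0.746 in Vec at D7, whereas that of Idh3b to Idh3g stayed between 0.948 and 1.43 in all 8 libraries. Idh2 had 59.5, 39.9, 41.3 and 50 RPKM in Cre cells, against 61, 37.3, 44 and 83.3 RPKM in Vec cells. Its D2 libraries lay below its D0 libraries, the only member of which this was so, with a fitted change of -0.53 ± 0.21 that did not pass.

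Ogdh and Dlst form the first and second components of oxoglutarate dehydrogenase. Ogdh had 22.6, 20.8, 36 and 24.6 RPKM in Cre cells at D0, 4h, D2 and D7, against 21.8, 20.5, 40.3 and 45.5 RPKM in Vec cells, and Dlst had 38.4, 47.8, 58 and 42.4 RPKM in Cre cells, against 39.7, 46.3, 74.8 and 80.1 RPKM in Vec cells. Both genes were highest at D2 in Cre cells and at D7 in Vec cells. Succinyl-CoA ligase is a shared alpha subunit, Suclg1, with an ADP-specific (Sucla2) or GDP-specific (Suclg2) beta subunit. Suclg1 had 24, 24, 39.6 and 26.7 RPKM in Cre cells, against 23.4, 21.6, 50.7 and 45.3 RPKM in Vec cells. It rose at D2 by 0.89 ± 0.22. Sucla2 had 21.3, 18.8, 27 and 23.7 RPKM in Cre cells, against 24.3, 20, 33.5 and 40.5 RPKM in Vec cells, and Suclg2 had 5.79, 5.3, 7.33 and 5.68 RPKM in Cre cells, against 5.43, 3.94, 9.58 and 9.25 RPKM in Vec cells. The ADP-specific form was the more abundant by RPKM, with ratios of Sucla2 to Suclg2 between 3.5 and 5.09, and neither passed at D2 or D7. Fh1, fumarase, had 24.1, 25, 47.7 and 28.6 RPKM in Cre cells, against 23.2, 24.7, 61.2 and 60.6 RPKM in Vec cells. Mdh2, mitochondrial malate dehydrogenase, regenerates oxaloacetate and had 116.3, 125.9, 197.6 and 122.8 RPKM in Cre cells, against 112.7, 154.7, 274.3 and 208.9 RPKM in Vec cells. At D2 Fh1 rose by 1.15 ± 0.28 and Mdh2 by 0.98 ± 0.21 (fitted log2, SE). Adjusted p at D2 by edgeR's quasi-likelihood test was 0.0262 for Suclg1, 0.0252 for Fh1 and 0.0163 for Mdh2.

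Of the 3 genes of the carnitine shuttle, 0 passed at D2 against D0 or at D7 against D0. Cpt1a, the liver-type carnitine palmitoyltransferase of the outer membrane, had 25.1, 43.4, 31.2 and 32.5 RPKM in Cre cells at D0, 4h, D2 and D7, against 23.3, 34.1, 10.4 and 12.7 RPKM in Vec cells. It was highest at 4h in both genotypes. At D2 and D7 Cre cells were above their D0 level and Vec cells below theirs. The Cre to Vec ratio was 3.01 (95% interval 2.82 to 3.21) at D2 and 2.57 (95% interval 2.38 to 2.77) at D7. The model's fitted change at D2 was -0.44 ± 0.40, which lies between a Cre change of 0.30 and a Vec change of -1.09 in log2(RPKM + 1). Cpt1b, the muscle-type isoform, which is also found in brown fat, had 0.989, 0.493, 1.16 and 1.96 RPKM in Cre cells, against 1, 0.648, 0.778 and 3.89 RPKM in Vec cells. These levels rest on 11 to 171 reads per library. Both D7 libraries lay above all others, and the gene rose at D7 against D2 by 1.66 ± 0.41 (SE; edgeR quasi-likelihood, adjusted p = 0.0347). That call was lost when Cre D0, Vec D0, Cre 4h, Vec 4h, Vec D2 or Vec D7 was left out. The RPKM ratio of Cpt1a to Cpt1b was 25.4 in Cre and 23.3 in Vec at D0, and 16.6 in Cre and 3.25 in Vec at D7. Cpt2, the inner-membrane enzyme that frees the acyl-CoA again, had 14.5, 16.3, 24.1 and 17 RPKM in Cre cells, against 12.6, 11.3, 26.9 and 29.2 RPKM in Vec cells. It was highest at D2 in Cre and at D7 in Vec, like most members.

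Acyl-CoA dehydrogenases open each round of beta-oxidation and are named for the chain length they take. The 3 that take medium to very long chains rose at both D2 and D7. Acadm, for medium chains, had 13.4, 8.23, 38.7 and 28.4 RPKM in Cre cells at D0, 4h, D2 and D7, against 13, 6.28, 47.5 and 70 RPKM in Vec cells. Acadl, for long chains, had 26.2, 20.4, 78.7 and 47.8 RPKM in Cre cells, against 25, 17.9, 93.7 and 109.4 RPKM in Vec cells. Acadvl, for very long chains, had 21.8, 19, 50.5 and 36.3 RPKM in Cre cells, against 22.6, 17.3, 60.9 and 78.4 RPKM in Vec cells. In all 3, every D2 and D7 library lay above every D0 and 4h library, and Vec D7 was the highest. Fitted changes at D7 against D0 were 1.93 ± 0.38, 1.65 ± 0.34 and 1.41 ± 0.30 in that order (SE; edgeR quasi-likelihood, adjusted p = 0.0404, 0.0434 and 0.0467). Each D7 call survived 1 of the 8 fits with a library left out. Acads, for short chains, had 12.9, 9.39, 17.4 and 19.2 RPKM in Cre cells, against 11.1, 4.88, 14.7 and 33.9 RPKM in Vec cells. It did not pass at any time. At 4h its Cre to Vec ratio was 1.92 (95% interval 1.48 to 2.5), the largest difference of any member at that time, with Vec 4h the lowest of the 8 libraries.

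The mitochondrial trifunctional protein carries the next steps for long chains, and its subunits Hadha and Hadhb share the head-to-head promoter shown above. Hadha had 29.9, 31.2, 42.3 and 39.9 RPKM in Cre cells at D0, 4h, D2 and D7, against 28.6, 24, 48.6 and 74.7 RPKM in Vec cells. Hadhb had 1.92, 1.07, 3.62 and 3.22 RPKM in Cre cells, against 1.57, 2.01, 4.39 and 8.08 RPKM in Vec cells. Hadha was 9.24 to 29.3 times as high as Hadhb by RPKM, although the protein holds both subunits in equal number. Hadhb rests on 16 to 247 reads per library, and the labels do not say how multiply matching reads were placed. Gapdh, a gene with many processed copies in the genome, was listed at 0.427 to 1.06 RPKM in these tables, so the level of Hadhb is uncertain. Neither subunit passed at D2 or D7. Hadh, which takes hydroxyacyl-CoA of short and medium chains, had 21.7, 17.4, 86.5 and 36.8 RPKM in Cre cells, against 20.9, 14.9, 93 and 83.9 RPKM in Vec cells. The D2 libraries of the genotypes were close, and at D7 Vec remained near its D2 level while Cre did not. It rose at D2 by 2.04 ± 0.34 (edgeR quasi-likelihood, adjusted p = 0.00865).

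Thiolases close the round. Acaa2, the general mitochondrial thiolase, had 24, 16.6, 36.3 and 42.5 RPKM in Cre cells at D0, 4h, D2 and D7, against 21.6, 21.4, 64.8 and 81.8 RPKM in Vec cells. It rose by 1.03 ± 0.27 at D2 and 1.45 ± 0.28 at D7 (SE; edgeR quasi-likelihood, adjusted p = 0.0308 and 0.0379). Cre D2 minus Vec D2 was -0.82 in log2(RPKM + 1), one of the largest gaps at that time. Acat1, which splits acetoacetyl-CoA and also serves ketone and isoleucine breakdown, had 20.6, 16.5, 28.7 and 24.4 RPKM in Cre cells, against 18.5, 16.6, 38.6 and 50.4 RPKM in Vec cells. It did not pass at D2 or D7.

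Unsaturated fatty acids need auxiliary enzymes. Eci1 and Eci2 move double bonds (enoyl-CoA isomerases), Ech1 does so in dienes, and Decr1 reduces dienoyl-CoA. Eci1 had 15.4, 10.3, 34.3 and 26.4 RPKM in Cre cells at D0, 4h, D2 and D7, against 15.4, 11, 64.1 and 68.5 RPKM in Vec cells. The gain from D0 to D2 was 1.10 in Cre and 1.99 in Vec in log2(RPKM + 1), so the genotypes had parted by D2. Eci2 had 25.2, 20, 32.1 and 28.6 RPKM in Cre cells, against 24.3, 17.5, 41.3 and 28.1 RPKM in Vec cells. It was the member whose genotypes met again at D7, with a ratio of 1.02 (95% interval 0.922 to 1.12). Ech1 had 19.7, 17.6, 29.7 and 37.3 RPKM in Cre cells, against 20.3, 17.1, 42.3 and 55.2 RPKM in Vec cells, and Decr1 had 10.5, 9.69, 16.5 and 13.8 RPKM in Cre cells, against 11.6, 8.85, 19.6 and 24.7 RPKM in Vec cells. Ech1 was one of 5 members that in Cre cells were highest at D7. Eci1, Eci2 and Ech1 rose at D2 by 1.55 ± 0.34, 0.54 ± 0.13 and 0.80 ± 0.17, and Ech1 also at D7 by 1.28 ± 0.17 (SE). The adjusted p of Ech1 by edgeR's quasi-likelihood test was 0.0176 at D2 and 0.0187 at D7, and the D7 call held in 5 of the 8 fits with a library left out.

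Electron transfer flavoprotein, a dimer of Etfa and Etfb, collects electrons from the acyl-CoA dehydrogenases, and Etfdh passes them to ubiquinone. Etfb had 35.7, 28.2, 65.9 and 59 RPKM in Cre cells at D0, 4h, D2 and D7, against 34.3, 31.6, 96.7 and 124.7 RPKM in Vec cells. Etfa had 28.5, 25, 38.1 and 37.9 RPKM in Cre cells, against 31.7, 19.6, 49.1 and 80.2 RPKM in Vec cells, and Etfdh had 16.7, 14.7, 32.7 and 22.6 RPKM in Cre cells, against 17.4, 13.2, 38 and 50 RPKM in Vec cells. All 3 were highest at D7 in Vec cells and at D2 in Cre cells. Etfb rose by 1.14 ± 0.27 at D2 and 1.41 ± 0.27 at D7, and Etfdh by 1.02 ± 0.30 at D2 (SE), with adjusted p by edgeR's quasi-likelihood test between 0.0228 and 0.0432. Etfa did not pass at D2 or D7.

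Between genotypes each time has 1 library per group, so the difference was described by size, counted where log2(RPKM + 1) differed by at least 1, with no test. Before induction the genotypes differed little: 0 of 36 members differed by 1, the differences ran from -0.18 (Sucla2) to 0.20 (Acads), and 0.275% of all genes were lower and 0.158% higher in Cre. In 13 members Cre lay below Vec at D0, against 47.9% of all genes. At 4h 0 of the 35 members with enough RPKM differed by 1 (2.59% of all genes lower, 1.65% higher), and the median of 0.09 lay by that of all genes, 0.11. Cre lay below Vec in 12 members at 4h, against 34.1% of all genes. At D2 Cpt1a alone was higher in Cre by at least 1 and 0 members were lower (2.55% and 1.54% of all genes). Smaller differences at D2 leaned one way, with 33 of 36 members below 0 against 54.2% of all genes with a lower RPKM in Cre, and a median of -0.34 against -0.04. The lowest at D2 were Eci1 at -0.88 and Acaa2 at -0.82.

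At D7 17 of 36 members were lower in Cre by at least 1, against 3.12% of all genes, and Cpt1a was higher, against 1.39%. The median difference was -0.93 over the members and 0.03 over all genes, and 34 members were below 0, against 45.8% of all genes with a lower RPKM in Cre. The lowest were Pdhb at -1.48, Pcx at -1.42, Eci1 at -1.35 and Acadm at -1.27. With a pseudocount of 5 in place of 1 the count at D7 was 11. By role, the 17 were Pdhb and Dlat of the dehydrogenase complex, Pcx, 4 of 12 cycle genes (Cs, Idh3a, Idh3b, Fh1), 3 of 4 acyl-CoA dehydrogenases, Hadhb, Hadh and Acat1, Eci1, and all 3 flavoprotein genes. The Cre to Vec ratio was 0.372 (95% interval 0.363 to 0.381) for Pcx, 0.431 (95% interval 0.418 to 0.444) for Cs and 0.406 (95% interval 0.378 to 0.436) for Acadm. These intervals cover counting error only, and 34 of 36 members had an interval wholly below 1 at D7, against 25.4% of the 12530 genes with reads in both libraries.

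In bulk RNA, fewer differentiated cells and less RNA per cell cannot be told apart. The markers moved with the members: at D7 all 8 adipocyte markers were lower in Cre by at least 1, with a median difference of -1.47, and of 8 fibroblast markers 7 were above 0, with a median of 0.74. Summed fibroblast markers were 3728.1 RPKM in Cre and 2069.4 in Vec at D7, and 1898.7 in Cre and 878.9 in Vec at D2. Summed brown adipocyte markers were 51.5 RPKM in Cre and 107.0 in Vec at D7, and skeletal muscle markers 32.9 in Cre and 18.1 in Vec. The part of these cell-type markers in the members' difference was not tested. At D2 adipocyte markers differed less than the members did, with a median of -0.12. Fibroblast markers differed at D2 too, with a median of 0.82 and 0 of 8 below 0.

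A constant difference between genotypes over all times, the only genotype effect that the model can test, was called in 0 members and 0% of all genes by edgeR's quasi-likelihood test. In the members, 8 had an unadjusted p under 0.05 (11.9% of all genes did), the smallest adjusted p was 0.41, and DESeq2 and limma also called 0. The members' median was -0.36, with Cpt1a (0.82) and Acads (0.07) the members above 0.

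**Figure D3:**
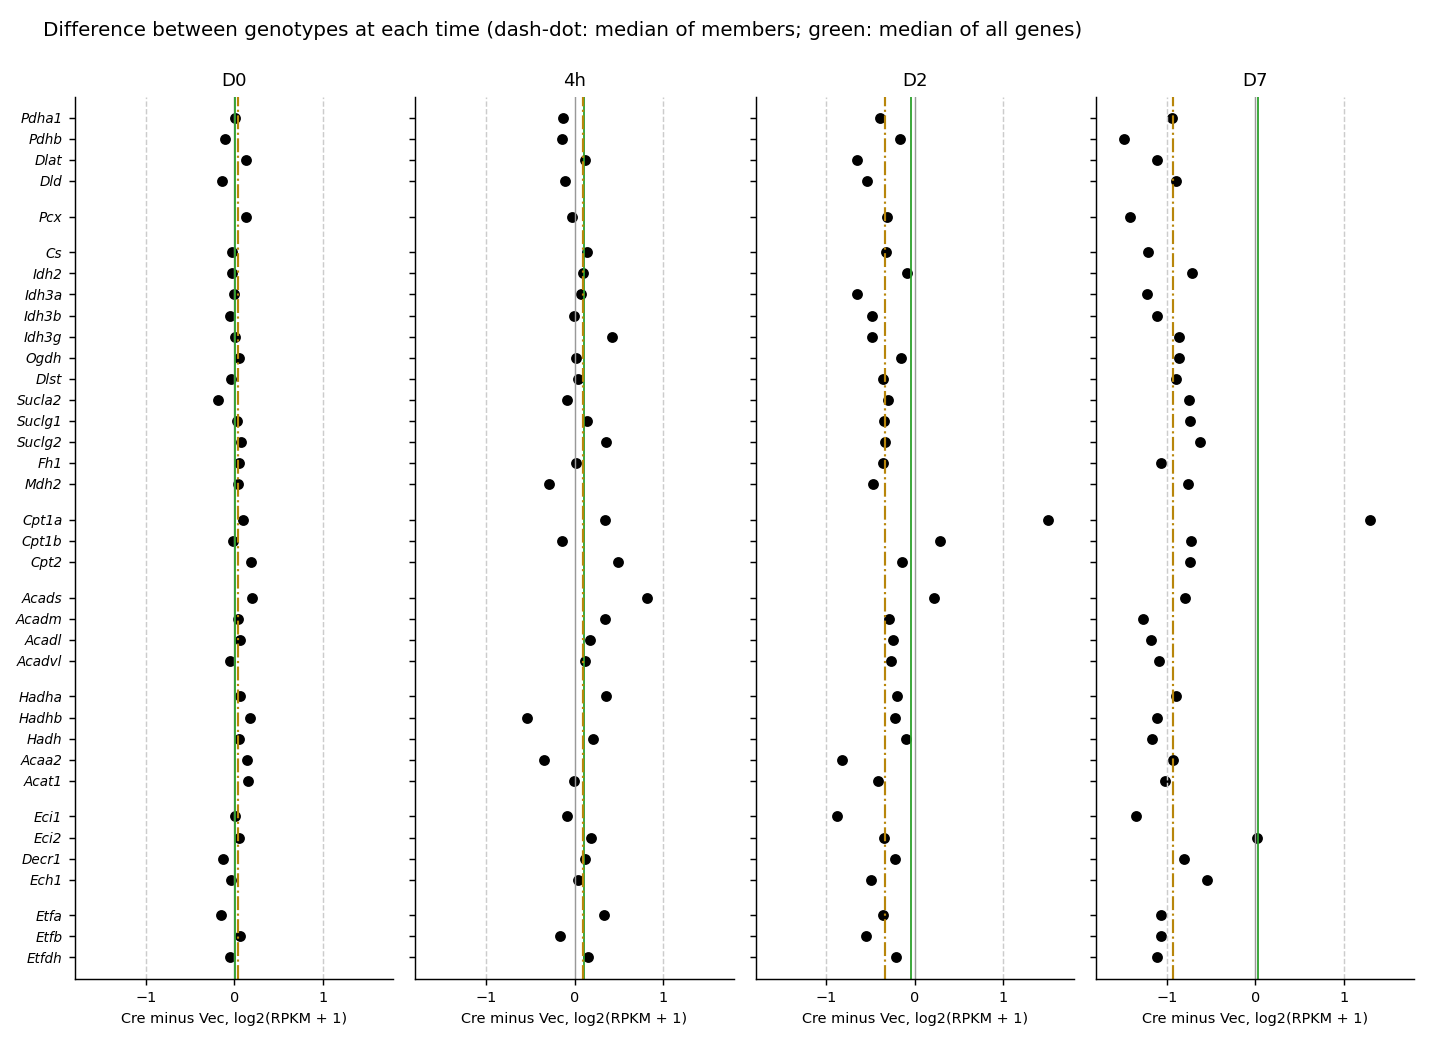
Cre minus Vec in log2(RPKM + 1) (horizontal axis) for each member at D0, 4h, D2 and D7, 1 library per group and no error bars; grey dashed lines mark differences of 1, the dash-dot line the median of the members and the green line the median of all genes. The points lie around 0 at D0, shift to the left at D2 and center on -0.93 at D7, with Cpt1a alone far to the right.

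The courses had begun to part by D2 and lay further apart at D7. Within Cre cells the median change in log2(RPKM + 1) was 0.68 from D0 to D2 and -0.36 from D2 to D7. Within Vec cells it was 1.08 and 0.29. All genes had medians between -0.07 and 0.04 over these steps. At D7, 29 of 36 members were lower than at D2 in Cre and 10 were in Vec, and 19 were lower in Cre but higher in Vec. The Cre change was the smaller in 33 of 36 members from D0 to D2 and in 35 from D2 to D7, Eci2 being the other. In Cre cells 29 members had their highest level at D2, and in Vec cells 25 had it at D7. These counts of directions and peak times are given for the members alone, with no share of all genes beside them. The 10 that were highest at D2 in Vec were Pdha1, Dlat, Dld, Idh3a, Suclg1, Suclg2, Fh1, Mdh2, Hadh and Eci2, 8 of which act in pyruvate oxidation or the cycle. The lowest change from D2 to D7 was that of Idh3a in both genotypes, -1.75 in Cre and -1.18 in Vec. These comparisons within a genotype share the D2 libraries and have 1 library at each end.

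**Figure D4:**
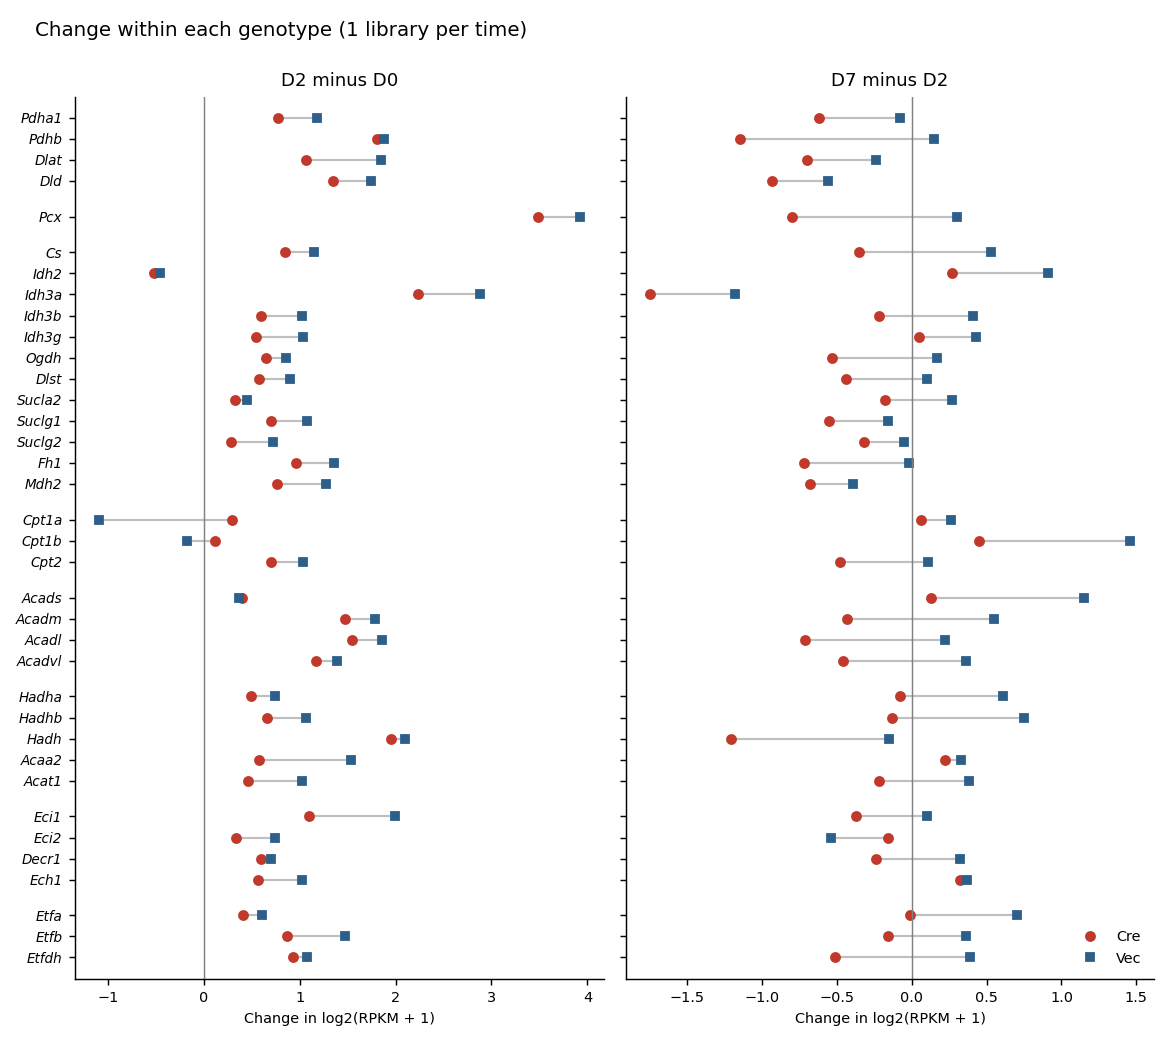
Change in log2(RPKM + 1) (horizontal axis) of each member from D0 to D2 (left) and from D2 to D7 (right) in Cre cells (red circles) and Vec cells (blue squares), joined by a grey line, 1 library per time. From D0 to D2 both points are right of 0 in 33 members, and from D2 to D7 the Cre point is left of the Vec point in 35.

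Lists of other genes of these pathways also had medians below 0 between genotypes at D7. For the counts in these lists, among all genes 17.7% rose and 21% fell at D2 against D0, and 5.68% rose at D7 against D0. At D7 3.12% of all genes were lower in Cre by at least 1 and 1.39% higher. Among 8 further cycle genes 4 were lower in Cre by at least 1 and 0 higher, with a median of -1.03, and 3 rose at D2. Of the genes of branched-chain amino acid breakdown, which also feeds the cycle, 6 of 9 were lower in Cre by at least 1 at D7. Their median there was -1.06, and 5 of 9 rose at D2. Bcat2, the mitochondrial branched-chain aminotransferase, had 7.92, 3.1, 19.1 and 13.5 RPKM in Cre cells at D0, 4h, D2 and D7, against 8.26, 3.18, 60.9 and 34.9 RPKM in Vec cells. Pdk1 and Pdk4 are kinases that switch pyruvate dehydrogenase off. Pdk1 had 6.46, 4.29, 6.81 and 7.29 RPKM in Cre cells, against 6.93, 3.29, 8.2 and 24.7 RPKM in Vec cells, and Pdk4 had 8.32, 9.58, 5.78 and 15.6 RPKM in Cre cells, against 8.32, 37.4, 16.1 and 21 RPKM in Vec cells. Pdk4 was lower in Cre at 4h, D2 and D7. Among 10 genes around the complex 3 were lower in Cre at D7 by at least 1, and at D2 Pdhx and the pyruvate carrier subunits Mpc1 and Mpc2 rose and Pdk3 fell.

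Genes that activate and carry fatty acids were less uniform. Of 12, 3 were lower in Cre by at least 1 at D7 and 0 higher by as much. At D7 9 of 12 were below 0 (median -0.35), and at D2 5 rose and Acsl5 fell. Acsl1, the main acyl-CoA synthetase of fat cells, had 5.92, 6.4, 333.8 and 52.7 RPKM in Cre cells at D0, 4h, D2 and D7, against 5.9, 5.66, 246.3 and 138.8 RPKM in Vec cells. It was higher in Cre than in Vec at D2 and lower at D7. In Vec D7 it was lower than in Vec D2 as well. Acacb, which makes the malonyl-CoA that inhibits the outer carnitine transferases, had 0.978, 0.551, 0.778 and 4.64 RPKM in Cre cells, against 0.928, 0.461, 0.563 and 17.7 RPKM in Vec cells. Acacb was near 1 RPKM or below until D2 and highest in Vec D7. Peroxisomal beta-oxidation had 1 of 12 genes lower in Cre by at least 1 at D7, 11 below 0 and a median of -0.65. Among 12 mitochondrial genes outside these pathways 6 rose at D2 and 0 at D7. Between genotypes 0 of 11 differed by 1 at D7. Their median there was -0.50, between that of all genes and that of the 36 members. At D2 Cre lay below Vec in all 12, against 54.2% of all genes, with a median of -0.29, near the -0.34 of the members.

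Of the factors known to drive oxidative genes, 5 of 9 tested rose at D2 (Pparg, Ppargc1a, Ppargc1b, Esrra and Tfam) and 3 at D7 (Pparg, Ppargc1a and Ppargc1b). Among all genes 17.7% rose at D2 and 5.68% at D7. Ppargc1b, a coactivator of estrogen-related receptors, had 0.556, 0.106, 11.5 and 3.88 RPKM in Cre cells at D0, 4h, D2 and D7, against 0.373, 0.312, 14.6 and 17.9 RPKM in Vec cells. Ppara had 0.245, 0.0349, 0.456 and 0.777 RPKM in Cre cells, against 0.252, 0.0767, 0.512 and 4.4 RPKM in Vec cells, and reached 4.4 RPKM in Vec D7 alone. Nrf1 and Gabpa, whose motifs were counted above, stayed between 6.85 and 16.6 RPKM in all libraries and passed at no time. Of 15 glycolysis genes 0 rose at D2 and 4 fell (Hk1, Pfkp, Eno1 and Pkm), where 17.7% of all genes rose and 21% fell. At D7 6 of 14 were lower in Cre by at least 1, against 3.12% of all genes, and 13 were below 0. Their median difference at D7 was -0.93, the same as that of the 36 members.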

How the data were processed

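Poly(A) RNA of 8 libraries was sequenced. Per the file headers, the authors deposited for each library a read count and an RPKM value per RefSeq accession. The submitters' processing notes name CASAVA 1.8.2, SICER and mm9, and no source used here names the RNA aligner or counter. The 22 ChIP samples were not analysed here. Of 29082 accessions 28436 (97.8%) matched a symbol in a RefSeq gene table of GRCm38.p6, used for names. The members, gene lists and tests were chosen with earlier results of these data known.

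Read counts were fitted with edgeR 4.0.16 (R 4.3.3) by quasi-likelihood with TMM scaling, terms for time and genotype, and Benjamini-Hochberg adjustment over 12581 genes, those that reached an RPKM of 1 in 2 libraries or more. The fit leaves 3 residual degrees of freedom, with a median prior of 2.88 and a common biological coefficient of variation of 0.176. It was tested on simulated data in which both genotypes had the same course, so that check does not cover genes whose courses part. Cre minus Vec was taken as log2(RPKM + 1), where either library of that time reached an RPKM of 1, with no test, because each group holds 1 library. Such differences understate those of low genes. Ratios carry exact conditional (Clopper-Pearson) 95% intervals on reads, which cover counting error only. Medians within a genotype were taken over the 13017 genes that reached an RPKM of 1 in any library. Library totals were worked out from the deposited read counts and RPKM, and differ somewhat from the summed counts. By these totals 24712179 reads (Cre) and 15176920 (Vec) lie behind the D7 values, and the 4h libraries are the shallowest. The named genes were all 36 members, with every library's value for those past the D2 or D7 test, those with a Cre minus Vec difference of at least 0.5, Cpt1a and Cpt1b, and up to 4 genes of each other list, by the size of their difference. The other members' values were added, and some genes of the other lists are not reported here. Alternatives were DESeq2 1.42.0, limma 3.58.1 on log2(RPKM + 1) and log2(RPKM + 5), other scaling, filters and pseudocounts, summed accessions, no genotype term, and each library left out in turn.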

Additional observations from a re-analysis of the deposited data

Results flagged for a closer look

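The results below are members whose change over a step was above 0 in one genotype and below 0 in the other, each beyond its 95% counting interval. With 1 library per genotype and time, the difference between the genotypes' changes was not tested. Values are the Cre change minus the Vec change in log2(RPKM + 1).

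Cpt1a differed by 1.40 from D0 to D2 (0.30 in Cre, -1.09 in Vec) and by 1.19 from D0 to D7 (0.36 in Cre, -0.83 in Vec). Idh2 differed by -0.69 from D0 to D7 (-0.25 in Cre, 0.44 in Vec). From D2 to D7, 16 members were lower in Cre and higher in Vec, a count given with no share of all genes beside it. Among genes of pyruvate use, Pdhb differed by -1.31 (-1.15 in Cre, 0.15 in Vec) and Pcx by -1.11 (-0.80 in Cre, 0.30 in Vec). Among genes of the cycle, the difference was -0.88 for Cs, -0.63 for Idh3b, -0.70 for Ogdh, -0.54 for Dlst and -0.45 for Sucla2. In fatty acid oxidation it was -0.59 for Cpt2, -0.98 for Acadm, -0.93 for Acadl, -0.82 for Acadvl, -0.69 for Hadha, -0.60 for Acat1 and -0.56 for Decr1. For the flavoprotein genes it was -0.52 for Etfb and -0.90 for Etfdh. Summed adipocyte markers were 2679.1 RPKM in Cre and 6820.5 in Vec at D7, and 2122.0 in Cre and 2368.8 in Vec at D2; their part in these differences was not tested.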

How the results depend on the processing

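No paired analysis was possible because each genotype and time has 1 library and the labels give no replicate numbers. No single member's called value changed sign with the processing. At D7 against D2, however, the direction in which members passed turned with which D7 library was left out. The members' median between D7 and D2, 0.12 as reported, was -0.46 without Vec D7 (6 of 36 above 0) and 0.52 without Cre D7 (31 above 0). It was -0.06 in limma on log2(RPKM + 1). The count of members passing at D7 against D0 was 26 with DESeq2, 15 with no filter on RPKM and 4 with no genotype term, against 7 as reported. At D7 against D2 it was 4 with DESeq2 and 1 with no genotype term, against 2. With each library left out in turn, the counts ran from 0 to 3 at 4h against D0, from 2 to 31 at D2 against D0, from 0 to 31 at D7 against D0 and from 0 to 5 at D7 against D2. In fits that leave a time with 1 library, that library is assumed to vary like the others. Members lower in Cre at D7 by at least 1 numbered 11 with a pseudocount of 5, against 17. Among values of single members recomputed under these settings, 433 kept their direction and their side of the threshold or interval, 112 missed the threshold and 16 lay outside the counting interval. The cause was not tested. Cre minus Vec at a given time cannot be recomputed with a library left out. Depth limits Cpt1b and Hadhb most, with 11 and 16 reads in Cre 4h.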

Other observations

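Oxct1, which lets cells use ketone bodies as fuel, fell at D2 by 0.86 on the fitted log2 scale (edgeR quasi-likelihood, adjusted p = 0.00829).

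Acsl4, an acyl-CoA synthetase that prefers arachidonate, had 16.7, 135.9, 25.8 and 13.8 RPKM in Cre cells at D0, 4h, D2 and D7, against 15.8, 126.7, 21.2 and 12.6 RPKM in Vec cells. It rose at 4h by 3.12 (fitted log2; edgeR quasi-likelihood, adjusted p = 0.00342), where 0 of the 36 members passed, and the genotypes stayed close at every time. Hspd1, a mitochondrial chaperone, had 33.5, 41.7, 126.8 and 28.3 RPKM in Cre cells at those times, against 34.5, 45.4, 187.7 and 46.2 RPKM in Vec cells, so that, as for Idh3a, both D2 libraries stood above the other 6.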
